A study of Mus musculus with 2 samples.

Results

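The immediate early genes described here are 33 genes taken from the 31053 genes of the deposited tables by their symbols, and each symbol matched exactly 1 row. They were followed in single-cell RNA profiles (10x Genomics Chromium, polyadenylated RNA) of skin from C57Bl6 mice of both sexes, 8 weeks old. One library came from skin injected intradermally with 100 ng sitagliptin, an inhibitor of the peptidase DPP4, dissolved in 100 µl PBS, and the other from skin that received PBS alone. The labels name 48 h beside the processing of the skin without giving the event it runs from, and give neither the number of animals pooled nor how the skin was dissociated. Of 22085 barcodes in the sitagliptin-labelled library, with 95047000 UMIs (unique molecular identifiers, each standing for 1 captured RNA molecule), 18380 were kept as cells, with a median of 2197 UMIs. Of 10456 barcodes in the PBS-labelled library, with 70729930 UMIs, 5932 were kept, with a median of 6902 UMIs. There was 1 library per treatment, so no test was made. Every interval given is a 95% interval for counting error alone and holds no variation between animals or preparations. The deposited names of the libraries carry letters that would fit the opposite treatment better than the labelled one. In what follows, with sitagliptin and with PBS mean in the library so labelled. Directions follow the labels, and an exchange of the libraries would turn each of them. The libraries had 75 barcodes in common, of which 65 were kept as cells in the sitagliptin-labelled and 46 in the PBS-labelled library.

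Immediate early genes are switched on within minutes of a stimulus, without new protein synthesis. The factors that bind their promoters, such as SRF with its partners and CREB, are already present in the cell. Kinases of the ERK, p38, JNK and cyclic AMP pathways are among their activators. Many products of immediate early genes are transcription factors themselves, among them the Fos and Jun proteins that pair to form AP-1 and the zinc finger proteins of the Egr family. Others end the response again as phosphatases, inhibitors or RNA decay factors. In skin they respond to wounding, growth factors and ultraviolet light, and enzymatic dissociation of a tissue at warm temperature is known to induce them while the cells are being prepared. A level measured here is therefore that of the dissociated cell.

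The promoters of 5 members are shown because Nr4a1, Atf3, Btg2 and Jun were among the members with the largest or most often repeated differences between the libraries, described below, whereas Dusp6 had the highest ratio over keratinocytes as a whole among the members with enough UMIs. Each sequence is the 250 bases before the start of the gene in RefSeq (GRCm38.p6), read 5′ to 3′ on the strand of the gene. Capitals mark TGACG, the core of the cyclic AMP response element that CREB and ATF proteins bind, on either strand, where the other strand reads CGTCA.
Nr4a1, chr15:101266596-101266845, plus strand: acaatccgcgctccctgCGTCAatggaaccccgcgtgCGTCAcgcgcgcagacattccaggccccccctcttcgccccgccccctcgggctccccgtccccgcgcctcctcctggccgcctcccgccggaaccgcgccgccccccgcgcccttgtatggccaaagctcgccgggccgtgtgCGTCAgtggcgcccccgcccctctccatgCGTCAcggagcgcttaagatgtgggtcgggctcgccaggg
Atf3, chr1:191183334-191183583, minus strand: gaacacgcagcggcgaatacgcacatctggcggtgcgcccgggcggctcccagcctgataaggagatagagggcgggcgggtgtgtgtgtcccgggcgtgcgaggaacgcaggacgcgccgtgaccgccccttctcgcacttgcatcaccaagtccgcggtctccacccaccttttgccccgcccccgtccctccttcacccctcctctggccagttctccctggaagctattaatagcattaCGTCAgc
Btg2, chr1:134079156-134079405, minus strand: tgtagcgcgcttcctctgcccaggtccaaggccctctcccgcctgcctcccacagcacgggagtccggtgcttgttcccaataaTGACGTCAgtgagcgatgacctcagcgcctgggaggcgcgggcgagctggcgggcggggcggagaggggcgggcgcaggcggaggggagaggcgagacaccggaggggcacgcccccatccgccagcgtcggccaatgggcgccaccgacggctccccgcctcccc
Jun, chr4:95052223-95052472, minus strand: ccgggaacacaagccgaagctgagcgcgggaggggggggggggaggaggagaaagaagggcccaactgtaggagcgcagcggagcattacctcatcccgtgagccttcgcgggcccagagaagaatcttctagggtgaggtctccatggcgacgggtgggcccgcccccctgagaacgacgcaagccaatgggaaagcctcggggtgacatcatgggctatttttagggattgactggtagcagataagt
Dusp6, chr10:99262981-99263230, plus strand: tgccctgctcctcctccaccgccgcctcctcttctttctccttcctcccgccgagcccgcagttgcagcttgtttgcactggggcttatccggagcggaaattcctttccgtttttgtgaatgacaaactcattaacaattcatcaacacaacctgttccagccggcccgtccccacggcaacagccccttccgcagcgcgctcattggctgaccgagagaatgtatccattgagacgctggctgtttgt
The core occurred 4 times before Nr4a1 and 1 time before Atf3. Before Btg2 its 2 matches overlap in the full palindrome TGACGTCA, and the windows of Jun and Dusp6 held no match. GENCODE vM21 also annotates starts further upstream for Nr4a1 and Atf3, whose windows are not shown.

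RefSeq promoters matched 27 of the 33 members, and those of Myc, Fosl1, Egr3, Nfkbiz, Egr1 and Ier2 were not used here. TGACG was present within 250 bases upstream of 12 of the 27 (44.4%), against 17.9% of 27025 genes. These were Btg2, Atf3, Nr4a2, Nr4a3, Klf4, Fosb, Klf2, Junb, Fos, Nr4a1, Dusp1 and Dusp5. The full TGACGTCA stood before Btg2 and Dusp1, which is 7.41% of the member promoters, against 1.62% of all. The EGR site GCGNGGGCG, in which N is any base, was found before 9 members (33.3%), against 4.65% of all. The CArG box, the element that SRF binds, was found before Zfp36 and Dusp5, against 1.40% of all promoters. TGANTCA was found before 1 member, Zfp36l1, against 6.87% of all. This pattern is wider than the AP-1 site, whose middle base is C or G, so neither share is that of the AP-1 site alone. TATAAA was found before Nr4a2, Zfp36l1 and Fos (11.1%), against 13.0% of all. Both strands were searched for each motif, and a match describes the letters of the window only.

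In GENCODE vM21 on mm10, Nr4a1 lies on chromosome 15 (101254269 to 101274795), Atf3 on chromosome 1 (191170296 to 191218039), Btg2 on the same chromosome (134075170 to 134079120) and Jun on chromosome 4 (95049034 to 95052222). Reads of a 3′ library that fall into sequence shared with another gene can be split or lost. Of the 31-base words in the last 500 bases of each member's transcripts, none occurred in another gene for 29 of the 33 members. The shares were 5.96% for Zfp36l1, 1.5% for Egr3, 0.709% for Nr4a2 and 0.319% for Nfkbia.

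Averaged over whole cell classes, the immediate early genes had their highest sums in classes other than keratinocytes. Levels are given as CPM, the UMIs of a gene per 1000000 UMIs of the same cells. Summed over the 33 members, the level in the sitagliptin-labelled library was 7349 CPM in endothelial cells, 6261 CPM in fibroblasts, 5503 CPM in dendritic or Langerhans cells and 3518 CPM in all keratinocytes. In the PBS-labelled library it was 10086 CPM in endothelial cells, 9079 CPM in myeloid cells without a class, 8644 CPM in T or innate lymphoid cells and 7162 CPM in dendritic or Langerhans cells. It was 6588 CPM in fibroblasts, 5542 CPM in macrophages and 4147 CPM in all keratinocytes of that library. Krt14, a keratin of basal keratinocytes, was also counted in the other classes. With sitagliptin it had 8257 CPM in endothelial cells, 9381 CPM in fibroblasts, 7119 CPM in dendritic or Langerhans cells and 8450 CPM in all keratinocytes. With PBS the values were 4551, 2065, 6498 and 10402 CPM. The part of keratinocyte RNA or cells in these sums was not tested. Among keratinocytes of the PBS-labelled library, those of the outer root sheath or bulge of the hair follicle, called the bulge class here, had the highest sum at 6199 CPM and sebocytes the lowest at 3066 CPM. In the sitagliptin-labelled library the upper follicle led the keratinocytes at 4525 CPM, and the bulge class stood at 3433 CPM, near suprabasal cells at 3544 CPM and basal cells at 3620 CPM. Sebocytes were the one keratinocyte class with a higher sum in the sitagliptin-labelled library, 3476 CPM, but 1385 of their 1457 cells there lay in a cluster that held 9 cells of the PBS-labelled library. A single cluster of the bulge class, led by Ramp1, stood higher than any whole class, at 11873 CPM in 59 cells of the PBS-labelled library. The plot of summed levels by class shows the order of the classes.

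**Figure D1:**
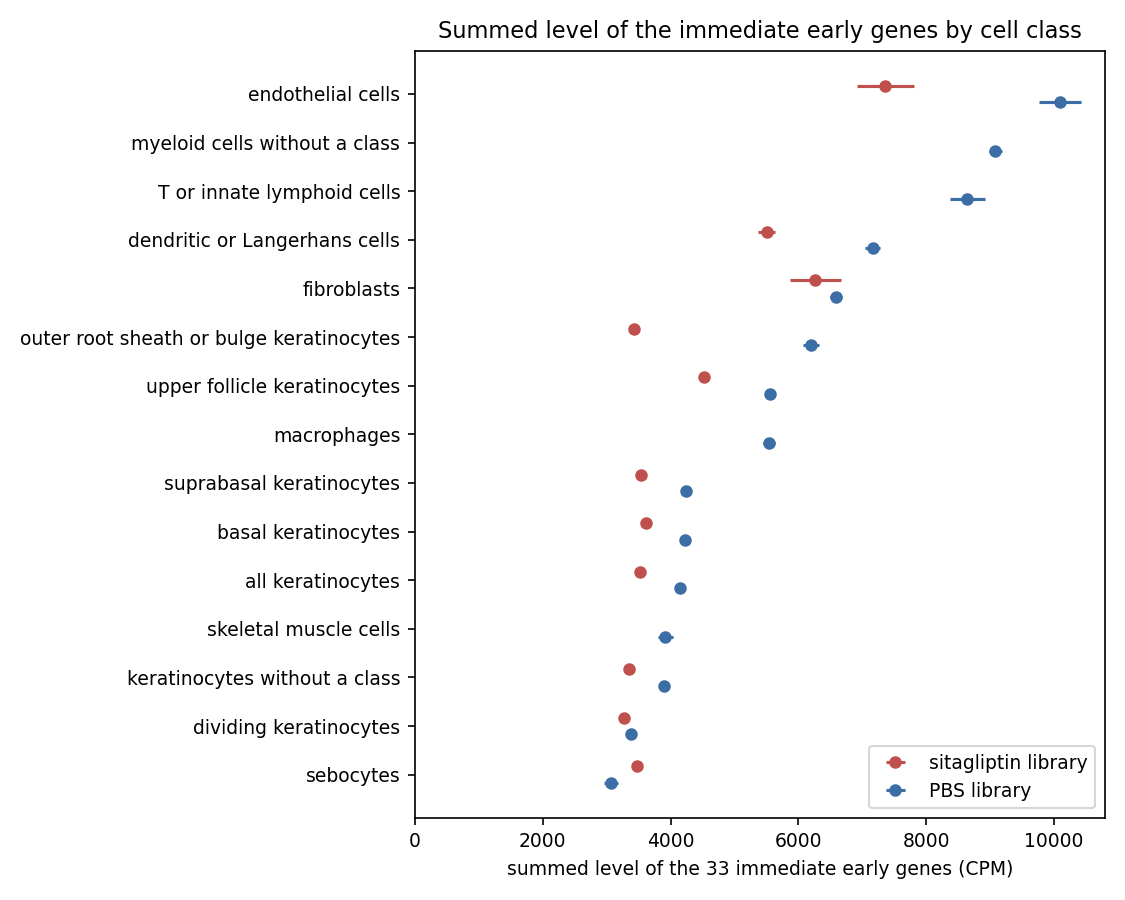
Summed level of the 33 immediate early genes (x axis, CPM, from 0) in each cell class (y axis) with at least 50 cells in a library. Red points are the sitagliptin-labelled library, drawn above the blue points of the PBS-labelled library, and bars are 95% Poisson intervals. Endothelial cells of the PBS-labelled library are highest at 10086 CPM, and the red point lies left of the blue one wherever both are drawn, except in sebocytes, with 3476 CPM for sitagliptin and 3066 CPM for PBS.

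The members did not share 1 pattern over the 13 classes, keratinocytes without a class left out, that held at least 50 cells of the PBS-labelled library. Endothelial cells had the highest level of 11 members, myeloid cells without a class that of 8 and T or innate lymphoid cells that of 6. The endothelial cells formed 1 cluster, in which lymphatic endothelial markers scored highest and blood endothelial markers second, so its values are not those of blood vessels alone. Jun, the founding Jun family gene, reached 1315 CPM in endothelial cells, against 743 CPM in the bulge class, the next highest. Klf2, a transcription factor that blood flow induces in endothelium, had 397 CPM in endothelial cells and 366 CPM in macrophages, intervals that overlap, and 7.98 CPM in the bulge class. Dusp1, a phosphatase that switches off p38 and JNK, had 905 CPM in myeloid cells without a class and 380 CPM in endothelial cells. Nr4a2, a nuclear receptor that needs no ligand, had 220 CPM in T or innate lymphoid cells and 64.6 CPM in the next class, the myeloid cells without a class. Btg2, an antiproliferative factor that recruits the deadenylase complex to mRNA, had 611 CPM in T or innate lymphoid cells.

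A few members were led by keratinocytes. Egr2, a zinc finger transcription factor, had 177 CPM in the upper follicle of the PBS-labelled library, against 68.7 CPM in the next class and 7.29 CPM in basal keratinocytes. Egr3, its relative, had 245 CPM in sebocytes and 136 CPM in suprabasal keratinocytes. Fosl1, which encodes Fra-1, had 28.8 CPM in basal keratinocytes and 17.9 CPM in dendritic or Langerhans cells, with overlapping intervals. Egr1 had 811 CPM in the bulge class and 747 CPM in dendritic or Langerhans cells, also with overlapping intervals. Klf4, a factor of barrier formation in the epidermis, had 791 CPM in suprabasal keratinocytes and 849 CPM in endothelial cells, intervals that overlap, and 320 CPM in basal keratinocytes. In the sitagliptin-labelled library suprabasal cells had the highest Klf4 level, 796 CPM, beside 793 CPM in dendritic or Langerhans cells, and the upper follicle the highest Egr2 level, 160 CPM.

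**Figure D2:**
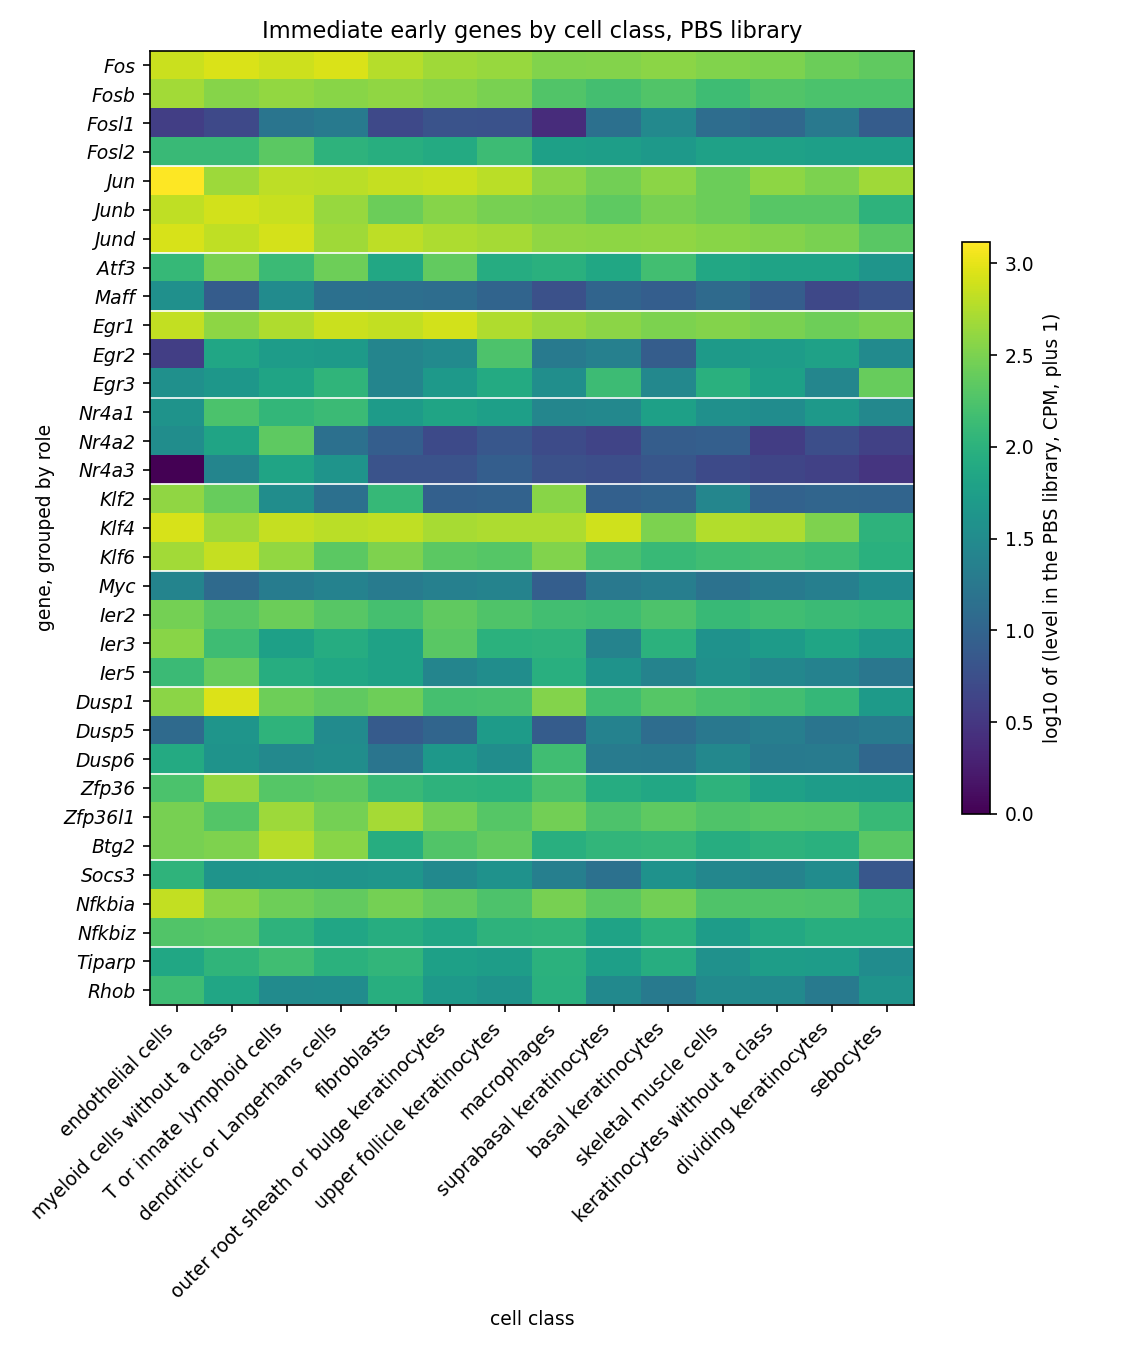
Level of each immediate early gene (rows, grouped by role between the white lines) in each cell class of the PBS-labelled library with at least 50 cells (columns), as log10 of CPM plus 1. Jun in endothelial cells is the highest value at 1315 CPM. Nr4a2, Nr4a3, Fosl1 and Maff are low in most classes.

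Over all keratinocytes, 20 of the 28 members with enough UMIs had a lower level in the sitagliptin-labelled than in the PBS-labelled library, and none was higher by the size used here. Among all genes with enough UMIs 52.0% had a lower level. The size used was at least 1.5-fold either way, among genes with a mean of at least 20 CPM over the libraries and at least 20 UMIs. The sum over all members was 3518 CPM in 17844 keratinocytes of the sitagliptin-labelled library and 4147 CPM in 3864 of the PBS-labelled library, a ratio of 0.848 (0.843 to 0.853). Of 28 members with enough UMIs, 5 were at least 1.5-fold lower and 0 at least 1.5-fold higher. Over all 6072 genes with enough UMIs, 0.642% were at least 1.5-fold lower and 1.96% at least 1.5-fold higher. The median log2 ratio was -0.29 over the 28 members and -0.01 over all genes. Nr4a2, Nr4a3, Fosl1, Klf2 and Maff, with 1.40 to 10.3 CPM in the sitagliptin-labelled and 4.36 to 14.3 CPM in the PBS-labelled library, were below the level needed.

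The orphan nuclear receptor Nr4a1 had 1381 UMIs or 16.8 CPM in keratinocytes of the sitagliptin-labelled library, against 1786 UMIs or 41.2 CPM in the PBS-labelled library, and was 2.45-fold lower (2.29 to 2.63). Atf3, a stress-induced partner of AP-1 proteins, had 43.8 CPM with sitagliptin and 83.1 CPM with PBS, and was 1.90-fold lower (1.81 to 1.99). Jun had 222 CPM with sitagliptin and 377 CPM with PBS, and was 1.70-fold lower (1.66 to 1.73). Ier3, an early response gene of survival signalling, had 40.9 CPM with sitagliptin and 63.4 CPM with PBS, and was 1.55-fold lower (1.47 to 1.63). Btg2 had 82.6 CPM with sitagliptin and 126 CPM with PBS, and was 1.52-fold lower (1.47 to 1.57). These 5 come from different role groups, and the intervals of Ier3 and Btg2 reach across 1.5-fold.

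Within the Fos family, Fos had the highest level, 260 CPM in keratinocytes of the sitagliptin-labelled library, against 335 CPM in the PBS-labelled library, a ratio of 0.775 (0.759 to 0.792). Fosb stood at a ratio of 0.815, and Fosl2, which encodes Fra-2, at 1.07 (1.02 to 1.12). Of the Jun family, Jund had 274 CPM with sitagliptin and 376 CPM with PBS, a ratio of 0.729, and Junb 185 CPM with sitagliptin and 234 CPM with PBS, a ratio of 0.793. Egr1 led its family with 298 CPM with sitagliptin and 365 CPM with PBS, a ratio of 0.817 (0.801 to 0.834). Egr2 had a ratio of 0.858 and Egr3 of 1.18 (1.13 to 1.23), so the 3 Egr genes did not move together.

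Klf4 was the member with the highest level in keratinocytes, 590 CPM in the sitagliptin-labelled and 522 CPM in the PBS-labelled library, a ratio of 1.13 (1.11 to 1.15). Klf6, a Kruppel-like factor of injury responses, had 175 CPM with sitagliptin and 156 CPM with PBS, a ratio of 1.13 (1.09 to 1.16). Among the unplaced factors Ier2 had the highest level, 117 CPM with sitagliptin and 151 CPM with PBS, a ratio of 0.780, while the oncogene Myc had 23.3 CPM with sitagliptin and 20.1 CPM with PBS, a ratio of 1.16 (1.07 to 1.26). Of the phosphatases, Dusp1 had 121 CPM with sitagliptin and 144 CPM with PBS, a ratio of 0.846, and Dusp6, which switches off ERK and is itself induced by ERK, had 28.1 CPM with sitagliptin and 20.8 CPM with PBS, a ratio of 1.35 (1.25 to 1.46). Dusp6 thus had the highest ratio of the 28 members without reaching 1.5-fold.

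Of the genes that act on mRNA, Zfp36l1 had 210 CPM with sitagliptin and 194 CPM with PBS, a ratio of 1.08 (1.06 to 1.11). Zfp36, its relative that destabilises cytokine and early gene mRNAs, had 53.6 CPM with sitagliptin and 72.1 CPM with PBS, a ratio of 0.744 (0.710 to 0.779). Nfkbia, the inhibitor that holds NF-κB in the cytoplasm, had 186 CPM with sitagliptin and 200 CPM with PBS, a ratio of 0.929 (0.904 to 0.953). Nfkbiz, a nuclear cofactor of NF-κB in keratinocytes, stood at 0.874 and Socs3, an inhibitor of cytokine signalling, at 0.732. Tiparp, a target of the aryl hydrocarbon receptor, had 39.9 CPM with sitagliptin and 57.6 CPM with PBS, a ratio of 0.692, and the small GTPase gene Rhob stood at 1.07. In both libraries 33 of 33 members were detected in keratinocytes.

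Not all keratinocytes are matched between the libraries. A cluster of low-UMI keratinocytes without a class held 5188 cells of the sitagliptin-labelled and 14 of the PBS-labelled library, and a suprabasal cluster held 2856 with sitagliptin and 31 with PBS. With only those clusters that had at least 50 cells in each library, the ratio of the sums was 0.854 and 5 members were at least 1.5-fold lower, against 0.677% of all genes, and none higher, against 2.26%. This restriction was chosen after the data were seen.

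Basal keratinocytes, the layer on the basement membrane, formed 1 cluster of 778 cells in the sitagliptin-labelled and 651 in the PBS-labelled library. Clusters named as dividing keratinocytes are not part of it and are given below. The summed level was 3620 CPM in the sitagliptin-labelled and 4222 CPM in the PBS-labelled library, a ratio of 0.857 (0.838 to 0.877). Of 25 members with enough UMIs 2 were at least 1.5-fold lower, where 0.969% of all genes were, and 0 were at least 1.5-fold higher, where 1.82% of all genes were. Jun had 647 UMIs or 202 CPM with sitagliptin and 1840 UMIs or 373 CPM with PBS, and was 1.85-fold lower (1.69 to 2.02). Btg2 had 72.3 CPM with sitagliptin and 120 CPM with PBS, and was 1.66-fold lower (1.42 to 1.94). Fos, Junb and Egr1 had ratios of 0.915, 0.912 and 0.974, closer to level than Jun in the same cells. Dusp6 had 25.9 CPM with sitagliptin and 17.8 CPM with PBS, a ratio of 1.45 (1.06 to 1.98).

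In suprabasal keratinocytes, which have left the basal layer and differentiate, the summed level was 3544 CPM in 5413 cells of the sitagliptin-labelled and 4236 CPM in 1051 cells of the PBS-labelled library, a ratio of 0.837 (0.828 to 0.845). Of 25 members with enough UMIs 5 were at least 1.5-fold lower, against 0.605% of all genes, and 0 were at least 1.5-fold higher, against 2.72% of all genes. Atf3 had 35.5 CPM with sitagliptin and 70.3 CPM with PBS, and was 1.98-fold lower (1.81 to 2.16). Jun had 162 CPM with sitagliptin and 281 CPM with PBS, and was 1.74-fold lower (1.67 to 1.81). Btg2 was 1.59-fold lower (1.49 to 1.70). Zfp36 and Fos lay on the threshold, 1.52-fold (1.40 to 1.64) and 1.5-fold (1.45 to 1.56) lower. Nr4a1, 2.15-fold lower (1.86 to 2.49) with 12.7 CPM with sitagliptin and 27.3 CPM with PBS, fell just short of the mean of 20 CPM needed. Klf4 had 796 CPM with sitagliptin and 791 CPM with PBS, a ratio of 1.01 (0.984 to 1.03), and Zfp36l1 a ratio of 1.21 (1.16 to 1.27).

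The suprabasal clusters that held cells of both libraries differed from each other. In the cluster with 1131 and 761 cells of the sitagliptin-labelled and PBS-labelled library, led by Krt6b and Krt16, the ratio of the sums was 0.835, and 4 of 25 members were at least 1.5-fold lower, against 0.855% of all genes, and none higher, against 1.34%. In that with 1101 cells with sitagliptin and 105 with PBS, led by Lor, which encodes the cornified envelope protein loricrin, the ratio was 0.899, and 1 of 25 members was at least 1.5-fold lower, against 3.97% of all genes, and none higher, against 10.5%. The 1 was Jund. In the cluster with 325 cells with sitagliptin and 154 with PBS, led by Mboat2, the ratio was 0.772. There 9 of 23 members were at least 1.5-fold lower, against 0.87% of all genes, and none higher, against 1.95%, with Atf3 at 19.3 CPM with sitagliptin and 62.8 CPM with PBS, and Btg2 at 50.6 CPM with sitagliptin and 136 CPM with PBS.

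Upper follicle keratinocytes, which line the follicle opening above the sebaceous gland, formed 1 cluster of 941 cells in the sitagliptin-labelled and 507 in the PBS-labelled library. The summed level was 4525 CPM in the sitagliptin-labelled and 5555 CPM in the PBS-labelled library, a ratio of 0.815 (0.801 to 0.829). Of 28 members with enough UMIs 4 were at least 1.5-fold lower, against 0.596% of all genes, and 0 at least 1.5-fold higher, against 1.56% of all genes. Nr4a1 had 72 UMIs or 12.6 CPM with sitagliptin and 278 UMIs or 56.0 CPM with PBS, and was 4.44-fold lower (3.41 to 5.83). Atf3 had 40.3 CPM with sitagliptin and 83.5 CPM with PBS, and was 2.07-fold lower (1.76 to 2.45). Btg2 had 152 CPM with sitagliptin and 236 CPM with PBS, 1.55-fold lower (1.42 to 1.70), and Jun had 419 CPM with sitagliptin and 631 CPM with PBS, 1.5-fold lower (1.43 to 1.59). With cells of at most 5% mitochondrial UMIs, 272 of the sitagliptin-labelled and 86 of the PBS-labelled library, none of these 4 was at least 1.5-fold lower, while 2 other members were at least 1.5-fold lower, against 4.02% of all genes, and 1 at least 1.5-fold higher, against 4.73%.

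**Figure D3:**
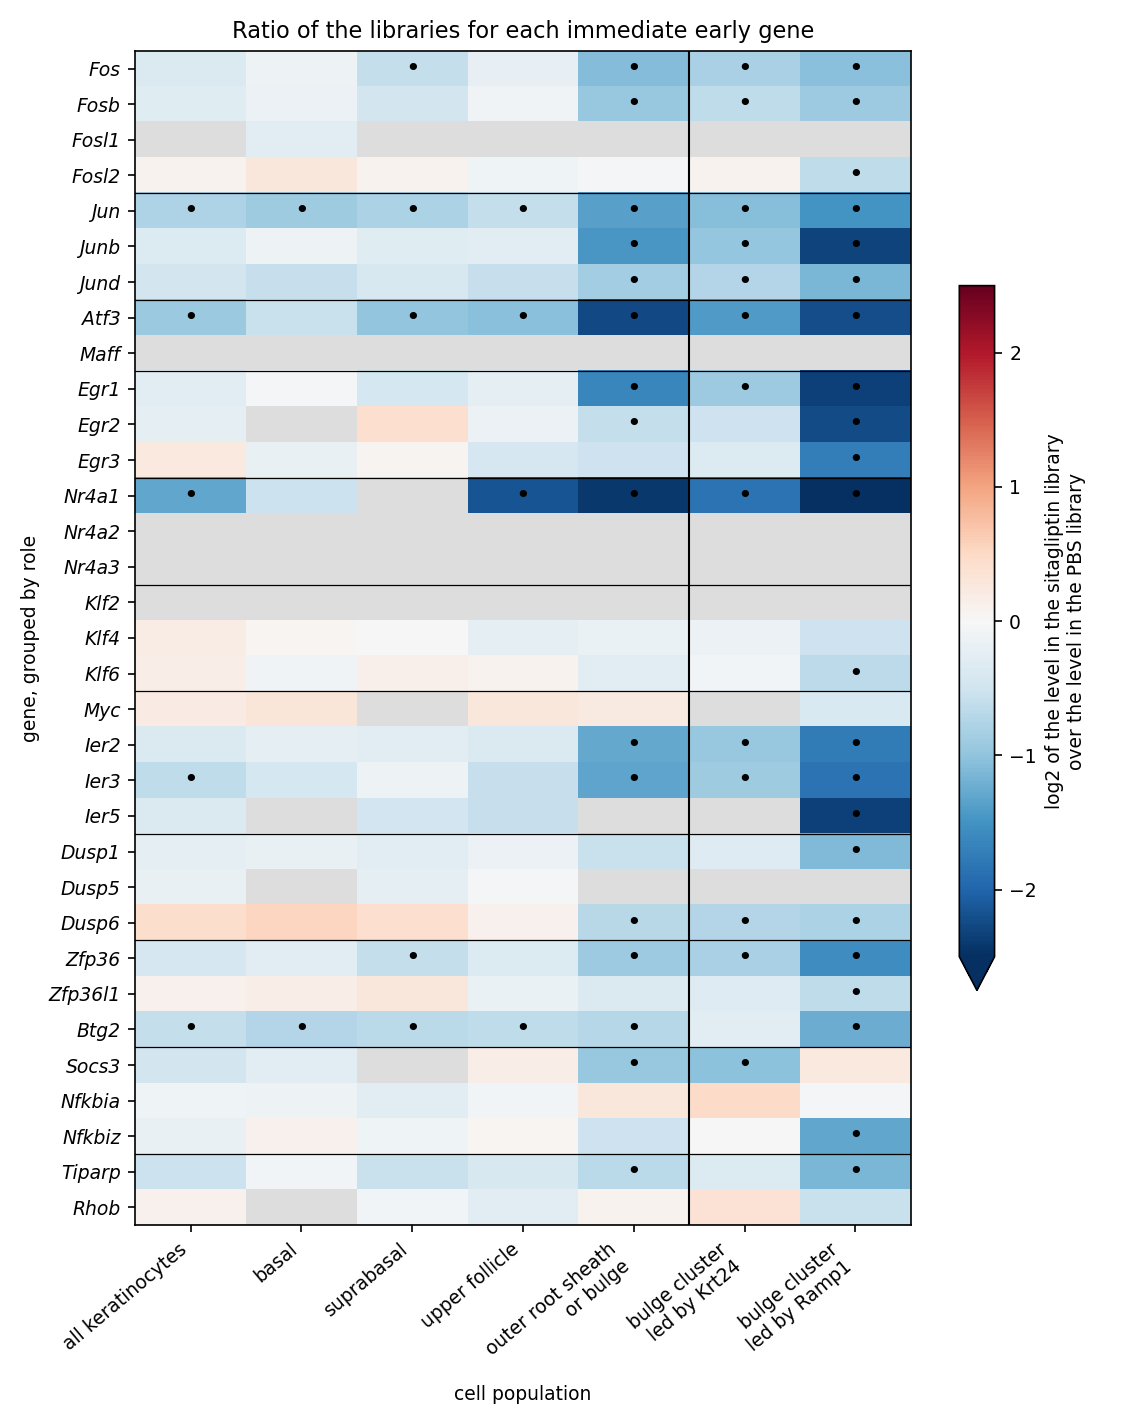
Ratio of the sitagliptin-labelled over the PBS-labelled library for each immediate early gene (rows, grouped by role) in 5 keratinocyte populations and, right of the vertical line, in 2 clusters of the bulge class (columns), as log2. Blue is lower in the sitagliptin-labelled library, grey marks too few UMIs, and a dot marks at least 1.5-fold. Jun and Btg2 carry a dot in each of the 5 populations, and the bulge class has 16 dots.

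Keratinocytes of the bulge class, which include the stem cells of the hair follicle, showed the lowest ratio of the sums among the keratinocyte classes compared. The summed level was 3433 CPM in 1750 cells of the sitagliptin-labelled and 6199 CPM in 271 cells of the PBS-labelled library, a ratio of 0.554 (0.541 to 0.567). Of 26 members with enough UMIs 16 were at least 1.5-fold lower, where 2.41% of all 6318 genes were, and 0 were at least 1.5-fold higher, where 3.88% of all genes were. The median log2 ratio was -0.70 over the 26 members and 0.00 over all genes. The intervals of this ratio and of those in the other 3 classes do not overlap, which compares the libraries and not the treatments.

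Nr4a1 had 89 UMIs or 12.3 CPM in these cells of the sitagliptin-labelled library, against 98 UMIs or 65.2 CPM in the PBS-labelled library, and was 5.30-fold lower (3.93 to 7.14). Atf3 had 352 UMIs or 48.7 CPM with sitagliptin and 350 UMIs or 233 CPM with PBS, and was 4.78-fold lower (4.11 to 5.56). That is more than in either of the clusters compared below, 4.62-fold in the one led by Ramp1 and 2.68-fold in the one led by Krt24, and without the cluster led by Ramp1 the ratio of Atf3 over the class was 0.330. Egr1 had 261 CPM with sitagliptin and 811 CPM with PBS, and was 3.11-fold lower (2.89 to 3.34). Junb had 129 CPM with sitagliptin and 353 CPM with PBS, and was 2.73-fold lower (2.45 to 3.04). Jun had 289 CPM with sitagliptin and 743 CPM with PBS, and was 2.57-fold lower (2.39 to 2.76). Ier3 had 83.2 CPM with sitagliptin and 209 CPM with PBS, and was 2.51-fold lower (2.18 to 2.88). These 6 genes came from the Jun and Egr families, the nuclear receptors, the AP-1 partners and the unplaced group.

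The other 10 members at least 1.5-fold lower there were Ier2 (2.43-fold), Fos (2.13-fold), Socs3 (1.92-fold), Fosb (1.92-fold), Zfp36 (1.88-fold), Jund (1.82-fold), Btg2 (1.64-fold), Dusp6 (1.61-fold), Tiparp (1.59-fold) and Egr2 (1.5-fold). The intervals of Socs3, Btg2, Dusp6, Tiparp and Egr2 reach below 1.5-fold. Dusp6, with 27.7 CPM in the sitagliptin-labelled and 44.6 CPM in the PBS-labelled library, lay in the opposite direction to its ratio in basal and suprabasal cells. Klf4 had 462 CPM with sitagliptin and 515 CPM with PBS, a ratio of 0.896 (0.829 to 0.971). Fosl2, Rhob and Myc had ratios of 0.960, 1.06 and 1.17 with intervals that include 1. Nfkbia had 289 CPM with sitagliptin and 236 CPM with PBS, a ratio of 1.22 (1.09 to 1.37). The plot of levels in the bulge class orders the members by this ratio.

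**Figure D4:**
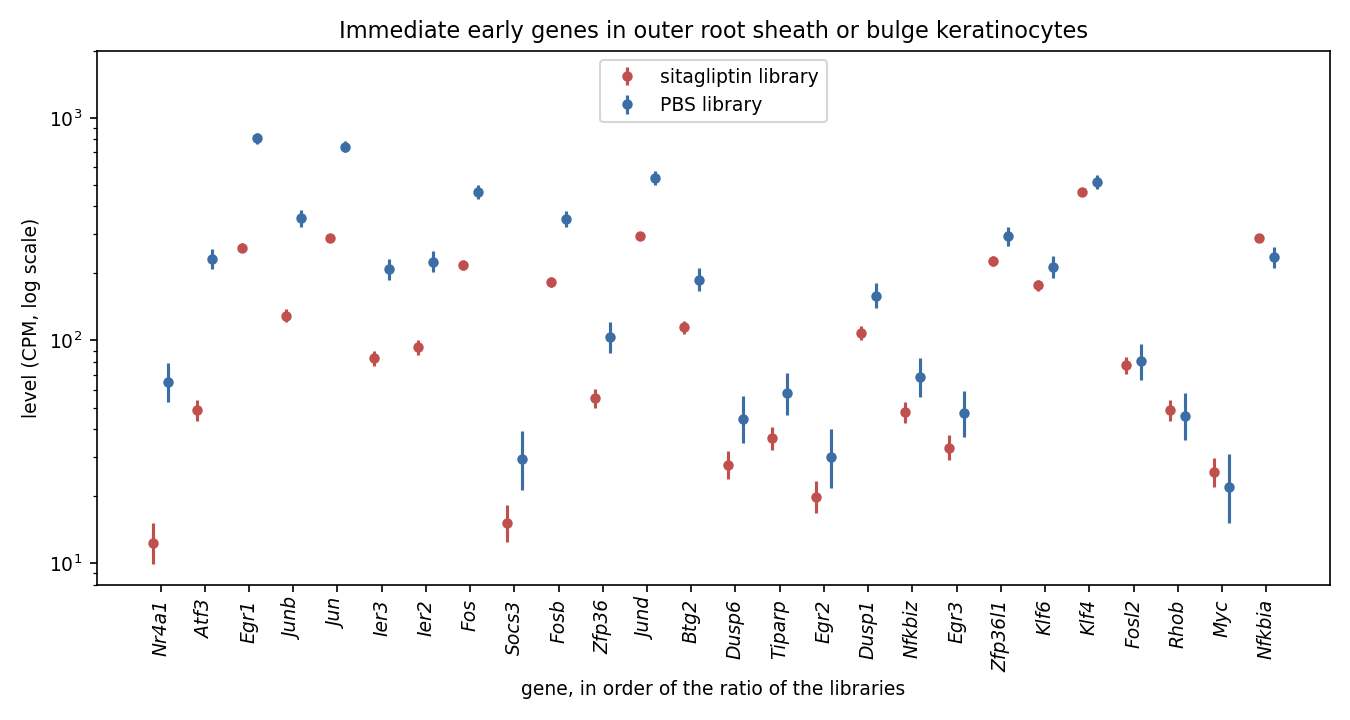
Level of the 26 immediate early genes with enough UMIs in outer root sheath or bulge keratinocytes, the bulge class (y axis, CPM, log scale) of the sitagliptin-labelled (red, left) and PBS-labelled (blue, right) library, ordered by the ratio of the libraries. Bars are 95% Poisson intervals. The gap is widest for Nr4a1 at 12.3 CPM with sitagliptin and 65.2 CPM with PBS, and the red point lies above the blue one for Rhob, Myc and Nfkbia.

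The class was made up of 3 clusters in unequal shares. One, led by Krt75, held 279 cells and 33.4% of the class's UMIs in the sitagliptin-labelled library, but 14 cells and 13.7% of the UMIs in the PBS-labelled library, and its summed level was low, 2739 CPM with sitagliptin and 2250 CPM with PBS. It held too few cells of the PBS-labelled library to be compared, and without it the ratio of the sums over the class was 0.554. The other 2 clusters are given singly. In the larger, led by Krt24 with Sfrp1, Grem1 and Lhx2 among its leading genes (1154 and 198 cells of the sitagliptin-labelled and PBS-labelled library), the summed level was 3602 CPM with sitagliptin and 5311 CPM with PBS, a ratio of 0.678 (0.657 to 0.700). There 13 of 25 members were at least 1.5-fold lower, against 3.52% of all genes, and none higher, against 3.93% of all genes. Nr4a1 was 3.58-fold lower, Atf3 2.68-fold and Jun 2.08-fold, whereas Klf4 and Klf6 had ratios of 0.906 and 0.955, and Nfkbiz had 51.3 CPM with sitagliptin and 51.1 CPM with PBS. Nfkbia had 289 CPM with sitagliptin and 206 CPM with PBS, a ratio of 1.40 (1.20 to 1.63).

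In the smaller cluster, led by Ramp1 with Sncg, Fgf18 and Chat (317 cells with sitagliptin, 59 with PBS), the summed level was 4672 CPM in the sitagliptin-labelled and 11873 CPM in the PBS-labelled library, a ratio of 0.393 (0.376 to 0.412). Of 27 members 22 were at least 1.5-fold lower, but 14.8% of all genes were, and 11.9% of all genes were at least 1.5-fold higher. Egr1 had 335 UMIs or 417 CPM with sitagliptin and 629 UMIs or 2101 CPM with PBS, and was 5.03-fold lower (4.40 to 5.77). Junb had 151 CPM with sitagliptin and 751 CPM with PBS, and was 4.99-fold lower (3.98 to 6.27). Atf3 had 162 CPM with sitagliptin and 748 CPM with PBS, and was 4.62-fold lower (3.71 to 5.78). Nr4a1 had 6 UMIs or 7.47 CPM with sitagliptin and 40 UMIs or 134 CPM with PBS, and was 17.9-fold lower (7.53 to 51.6). Nfkbia stood near level there, with 329 CPM with sitagliptin and 341 CPM with PBS, a ratio of 0.965 (0.765 to 1.23). Without this cluster the ratio of the sums over the class was 0.685, and 13 members were at least 1.5-fold lower, against 2.67% of all genes, and none higher, against 4.21%.

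Single members were past 1.5-fold in several clusters of the same 2 libraries, which is no replication. Over the 16 clusters holding 50 or more cells of both libraries, 0.596% to 28.2% of all genes were at least 1.5-fold lower. The share at least 1.5-fold higher ran from 1.13% to 23.7%. Jun was at least 1.5-fold lower in 11 of these clusters, Jund in 10 and Ier3 in 6, and these genes were higher by that size in none. Btg2 was at least 1.5-fold lower in 10, Atf3 in 9 and Nr4a1 in 8, and each of these was at least 1.5-fold higher in 1, the fibroblasts. The endothelial cluster, where 28.2% of all genes were lower, was among those counted for Jund, Ier3 and Btg2. The fibroblasts, where 26.2% were, were among those counted for Jund. Ier3 had enough UMIs in 15 of the 16 clusters and Nr4a1 in 12. Klf4 had enough UMIs in all 16 and was past 1.5-fold in none. Maff and Nr4a2 had enough UMIs in 0 of the 16 and Fosl1 in 2, so nothing can be read from their lack of calls. Of the dividing keratinocytes, the cluster with 566 and 552 cells of the sitagliptin-labelled and PBS-labelled library had 3 of 22 members at least 1.5-fold lower, against 0.668% of all genes, and none higher, against 2.0%. That with 585 cells with sitagliptin and 300 with PBS had 2 of 28, against 0.611%, and none higher, against 1.13%. The 3 were Jun, Jund and Btg2, and the 2 were Atf3 and Nr4a1.

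Another 2 keratinocyte clusters without a class also held cells of both libraries. In that led by Sostdc1 and Fst (674 cells with sitagliptin, 289 with PBS) 5 of 28 members were at least 1.5-fold lower, against 1.41% of all genes, and Dusp6 and Myc were at least 1.5-fold higher, against 2.18% of all genes. Dusp6 had 123 UMIs or 44.3 CPM with sitagliptin and 63 UMIs or 26.8 CPM with PBS. In that led by Nusap1 and Mt4 (492 with sitagliptin, 153 with PBS) 4 of 23 members were at least 1.5-fold lower, Fosb, Jun, Nr4a1 and Btg2, against 0.856% of all genes, and none higher, against 1.68%.

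Outside the keratinocytes, dendritic or Langerhans cells (112 cells of the sitagliptin-labelled and 98 of the PBS-labelled library) had 5503 CPM with sitagliptin and 7162 CPM with PBS over all members, a ratio of 0.768 (0.746 to 0.791). Of 29 members 12 passed 1.5-fold downward, against 6.04% of all genes, and none higher, against 5.06%. Btg2 had 133 CPM with sitagliptin and 368 CPM with PBS, Nr4a3, an orphan nuclear receptor, 10.3 CPM with sitagliptin and 39.9 CPM with PBS, and Atf3 126 CPM with sitagliptin and 267 CPM with PBS. In endothelial cells (53 with sitagliptin, 86 with PBS) 9 of 24 members lay at least 1.5-fold below PBS and none above, but 28.2% of all genes were lower and 16.9% higher by that size. In the coarser clustering at Leiden resolution 0.5, a lymphatic endothelial cluster held 5 cells with sitagliptin and 49 with PBS. A blood endothelial cluster held 12 with sitagliptin and 30 with PBS, and the dendritic or Langerhans cluster 56 with sitagliptin and 95 with PBS. In the sebocyte cluster that held 72 cells with sitagliptin and 67 with PBS the summed level was 1987 CPM with sitagliptin and 2964 CPM with PBS. The ratio was 0.670 (0.625 to 0.718), near that of the bulge cluster led by Krt24, 0.678. In these sebocytes 13 of 22 members were at least 1.5-fold lower, against 9.56% of all genes, and none higher, against 9.7%. Ier3 had 8 UMIs or 13.6 CPM there with sitagliptin and 47 UMIs or 52.0 CPM with PBS. In fibroblasts (52 with sitagliptin, 494 with PBS) 5 of 27 members lay at least 1.5-fold below PBS and 7 above, where 26.2% of all genes were lower and 23.7% higher. In a cluster without a broad cell type, led by Dct and Fam13a (198 cells with sitagliptin, 125 with PBS), 5 of 26 members lay at least 1.5-fold below PBS and Nfkbia above, against 7.72% and 7.44% of all genes.

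Cells were then compared 1 by 1 after each was thinned at random to 1000 UMIs, which removes the difference in depth. In all keratinocytes a cell held a median of 3 member UMIs per 1000 in both libraries, and the 90th percentile was 7 in the sitagliptin-labelled and 9 in the PBS-labelled library. In basal cells the mean over cells was 3.46 ± 3.01 and 4.36 ± 3.50 (SD over 778 and 651 cells of the sitagliptin-labelled and PBS-labelled library). The variance over the mean, which is 1 for counting error alone, was 1.93 and 3.57 in all keratinocytes of the sitagliptin-labelled and PBS-labelled library, and 3.49 and 7.40 in the bulge class. Before thinning a keratinocyte had a median of 6 members detected in the sitagliptin-labelled and 13 in the PBS-labelled library, and after thinning 3 in both.

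The bulge clusters differed in how the level was spread over cells. In the cluster led by Krt24 the median was 3 in both libraries, and the difference lay in the upper tail, with 10 of 1154 cells (0.867%) of the sitagliptin-labelled and 13 of 198 (6.57%) of the PBS-labelled library at 20 or more member UMIs per 1000. In the cluster led by Ramp1 the median was 3 in the sitagliptin-labelled and 10 in the PBS-labelled library. The share of cells with 20 or more was 1.89% of 317 with sitagliptin and 15.3% of 59 with PBS. The median number of members detected per thinned cell of this cluster was 3 with sitagliptin and 7 with PBS.

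**Figure D5:**
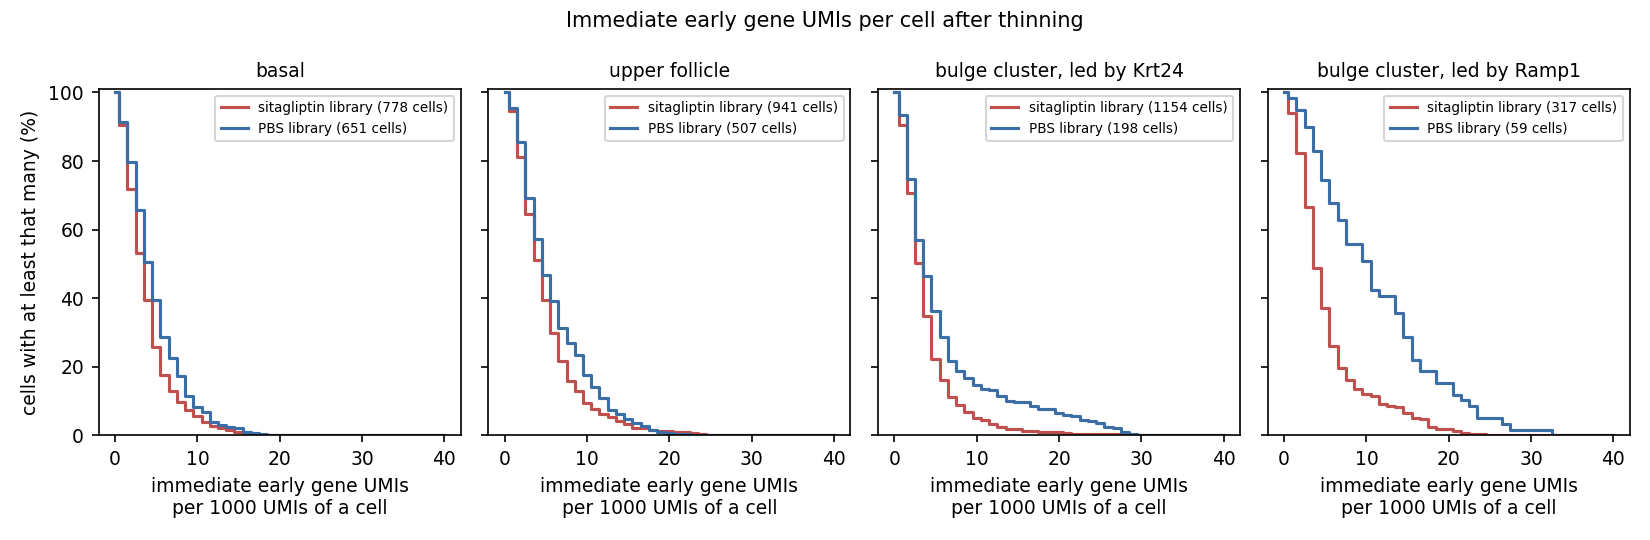
Share of cells (y axis, percent) with at least a given number of immediate early gene UMIs per 1000 UMIs of the cell (x axis), in 4 keratinocyte populations of the sitagliptin-labelled (red) and PBS-labelled (blue) library. The blue curve lies a little above the red one over most of its range in basal and upper follicle cells, the curves part in the upper tail in the bulge cluster led by Krt24, and lie apart throughout in that led by Ramp1, where the medians are 3 with sitagliptin and 10 with PBS.

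Across keratinocytes, the thinned counts of each gene were set beside the sum of the other members. Egr1 had a Pearson correlation of 0.26 over 17844 cells of the sitagliptin-labelled and 0.44 over 3864 cells of the PBS-labelled library, Fos 0.25 with sitagliptin and 0.38 with PBS, and Jun 0.24 with sitagliptin and 0.44 with PBS. Dusp6, Myc and Maff had 0.01 with sitagliptin and 0.04 to 0.05 with PBS. The 3 non-members with the highest correlation among 551 genes of at least 200 CPM in both libraries were Neat1, a nuclear long noncoding RNA, Hspa1b, a heat shock protein gene, and Krt79, a keratin of the upper follicle, with 0.09 to 0.11 with sitagliptin and 0.08 to 0.20 with PBS. In counts this sparse the values describe the cells of 2 libraries and are no finding.

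Several other properties of the cells moved with the libraries. The median UMIs per keratinocyte were 2188 in the sitagliptin-labelled and 8494 in the PBS-labelled library. In keratinocytes of 1000 to 2000 UMIs the summed level was 3497 CPM with sitagliptin and 4423 CPM with PBS, and in those of at least 10000 UMIs 3451 CPM with sitagliptin and 4036 CPM with PBS. In the bulge class it was 3090 to 3691 CPM with sitagliptin and 5855 to 6561 CPM with PBS over 4 ranges of UMIs. Basal cells of at least 10000 UMIs were the exception among these ranges, with 4321 CPM in 20 cells of the sitagliptin-labelled and 4034 CPM in 119 cells of the PBS-labelled library. The median share of mitochondrial UMIs in the bulge class was 5.91% in the sitagliptin-labelled and 7.34% in the PBS-labelled library. Between 7% and 10% mitochondrial UMIs the summed level there was 3308 CPM with sitagliptin and 5483 CPM with PBS, and between 5% and 7% it was 3463 CPM with sitagliptin and 6191 CPM with PBS. Between 3% and 5% it was 3480 CPM in 427 cells with sitagliptin and 8522 CPM in 19 cells with PBS, so the gap was not even over these ranges. Below 3% the PBS-labelled library held 2 cells of the class.

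RNA of other cells was also present unequally. The 9 macrophage markers, each detected in keratinocytes of both libraries, summed to 7.75 CPM in the sitagliptin-labelled and 85.1 CPM in the PBS-labelled library, where macrophages themselves had 18410 CPM, so keratinocytes held 0.462% of that level. In the bulge class the sums were 4.15 CPM with sitagliptin, 2 of the 9 being at 0, and 198 CPM with PBS, none being at 0, which is 1.07% of the macrophage level. In basal, suprabasal and upper follicle cells they lay between 4.99 and 7.80 CPM in the sitagliptin-labelled and between 85.4 and 103 CPM in the PBS-labelled library. The 7 fibroblast markers summed to 16.6 CPM with sitagliptin and 41.8 CPM with PBS in all keratinocytes and to 19.1 CPM with sitagliptin and 78.5 CPM with PBS in the bulge class, while fibroblasts of the PBS-labelled library had 32447 CPM. The 4 erythrocyte markers summed to 8.57 CPM with sitagliptin and 1602 CPM with PBS in the bulge class, and to 24.9 CPM with sitagliptin and 26.7 CPM with PBS in the cluster led by Ramp1. In cells without any UMI of the 9 macrophage markers the ratio of the summed members was 0.817 in all keratinocytes and 0.602 in the bulge class, where 130 cells of the PBS-labelled library remained. The part of other cells' RNA in the single members was not tested otherwise.

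Lists of related genes were set beside the members in all keratinocytes, where the median log2 ratio of all genes was -0.01. Of all genes with enough UMIs there, 0.642% were at least 1.5-fold lower and 1.96% at least 1.5-fold higher. Of 11 heat shock genes, which dissociation also induces, 1 was at least 1.5-fold lower and none higher, with a median log2 ratio of -0.05, and their sum was 6840 CPM in the sitagliptin-labelled and 6779 CPM in the PBS-labelled library. The 1 was Hspa1a, with 111 CPM with sitagliptin and 193 CPM with PBS, whereas its near-identical neighbour Hspa1b had 253 CPM in both. Of the 22 genes of the pathway from EGF receptor through ERK to SRF and CREB 16 had enough UMIs, and 1 of them, the kinase gene Rps6ka1, was at least 1.5-fold lower, with 21.9 CPM with sitagliptin and 33.8 CPM with PBS. The median log2 ratio of the 16 was -0.02, and Srf itself had a ratio of 0.748. Of 13 feedback genes of ERK 4 had enough UMIs, with a median log2 ratio of -0.02, and none was past 1.5-fold in either direction. The same held for 4 of 15 further NF-κB genes (median -0.11) and 7 of 11 further genes of AP-1 type factors (median 0.05).

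Of 28 other primary response genes 11 had enough UMIs, of which 3 lay at least 1.5-fold below PBS and 1 above. Of all genes 0.642% lay below and 1.96% above by that size. The median log2 ratio of the 11 was -0.20. Cyr61, a matricellular target of SRF and YAP, had 20.7 CPM with sitagliptin and 38.9 CPM with PBS, Hbegf, a ligand of the EGF receptor, 39.9 CPM with sitagliptin and 68.5 CPM with PBS, and Ppp1r15a, a phosphatase subunit of the stress response, 18.4 CPM with sitagliptin and 28.1 CPM with PBS. Ctgf, a relative of Cyr61, was the one higher, with 67.8 CPM with sitagliptin and 15.9 CPM with PBS. Ctgf was a leading gene of the low-UMI cluster of 5188 cells with sitagliptin and 14 with PBS, and of the bulge cluster led by Krt24. In keratinocyte clusters with at least 50 cells of both libraries it had 52.0 CPM with sitagliptin and 14.8 CPM with PBS, and within the cluster led by Krt24 561 CPM with sitagliptin and 393 CPM with PBS. Of the list genes called over all keratinocytes, Rps6ka1 was the one no longer past 1.5-fold in the clusters with at least 50 cells of both libraries. Gadd45b was past it there, 1.55-fold lower. In those clusters 0.677% of all genes were at least 1.5-fold lower and 2.26% higher. Of the 7 genes that glucocorticoids induce, 4 were at least 1.5-fold higher over all keratinocytes, against 1.96% of all genes, and none lower, against 0.642%. Their median log2 ratio was 0.70 and the ratio of their sums 1.76 (1.73 to 1.79). Tsc22d3, which encodes GILZ, had 154 CPM with sitagliptin and 62.5 CPM with PBS. Of the 4 wound keratins 3 were at least 1.5-fold lower, Krt6a, Krt6b and Krt16, against 0.642% of all genes. Krt17 had a ratio of 0.944 (median log2 ratio of the 4, -0.86).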

How the data were processed

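The authors deposited whole-number UMI counts for each gene in each barcode, without normalization. Cell Ranger 3.1.0 and mm10 are named in the submitters' processing notes, with cell calling not given in the sources used here. Members, lists and rules were chosen with earlier results of these data known.

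Barcodes were kept from 500 genes and 1000 UMIs upward, up to 10% mitochondrial UMIs. Scrublet (scanpy 1.11.5) marked 0 and 2 cells of the sitagliptin-labelled and PBS-labelled library, so it has not worked and doublets remain. Cells of both libraries were clustered jointly, with no batch alignment, on 2000 variable genes, the 33 members left out, with 30 principal components, 15 neighbours and Leiden resolution 1 (leidenalg 0.10.2, seed 1). Clusters were named from fixed marker lists, and those that met no list clearly stayed without a class. UMIs were summed per library and class and given as CPM with exact Poisson intervals, and ratios, sitagliptin-labelled over PBS-labelled, with exact conditional binomial intervals (scipy 1.17.1, numpy 2.4.6, pandas 2.3.3, Python 3.11.15, matplotlib 3.10.9). Classes were compared with at least 50 cells in each library. The steps were tested on simulated data with known folds. Gene identifiers matched GENCODE vM21 in 31011 of 31053 cases (99.9%). Full values are given for up to 6 members each way with the largest ratios past 1.5-fold in each class and for the member with the highest level in each role group. Of the basal, suprabasal, upper follicle and bulge classes, the bulge class of the PBS-labelled library held the fewest UMIs, 1503554. Sebocytes of that library held 984184. Endothelial cells and fibroblasts of the sitagliptin-labelled library held 147631 and 153500, so members of low level have wide intervals there.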

Additional observations from a re-analysis of the deposited data

Results flagged for a closer look

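Some members were at least 1.5-fold higher in 1 cluster and at least 1.5-fold lower in others, with both intervals clear of 1. These differences between clusters were not tested. In fibroblasts, 52 cells of the sitagliptin-labelled and 494 of the PBS-labelled library, Egr3 had a ratio of 6.26 (3.78 to 10.0), Nr4a1 of 3.35 (2.12 to 5.09), Atf3 of 2.68 (1.77 to 3.93), Btg2 of 1.72 (1.07 to 2.64) and Junb of 1.52 (1.15 to 1.98). Of 16 clusters with at least 50 cells in each library, Btg2 was lower in 10, Atf3 in 9, Nr4a1 in 8, Junb in 4 and Egr3 in 1. Over those clusters 0.596% to 28.2% of all genes were at least 1.5-fold lower. By the same size 7 of 27 members were higher and 5 lower in fibroblasts, and of all genes 23.7% were higher and 26.2% lower. The fibroblast markers summed to 10808 CPM in the fibroblasts of the sitagliptin-labelled and 32447 CPM in those of the PBS-labelled library, Krt14 reached 9381 CPM with sitagliptin and 2065 CPM with PBS, and the part of other cells' RNA in these ratios was not tested. Dusp6 had a ratio of 1.65 (1.21 to 2.27) in a keratinocyte cluster without a class of 674 cells with sitagliptin and 289 with PBS, where 2.18% of all genes were at least 1.5-fold higher, and was lower in 2 clusters with intervals clear of 1. Nfkbia had a ratio of 1.53 (1.25 to 1.88) in a cluster without a broad cell type of 198 cells with sitagliptin and 125 with PBS, where 7.44% were, and was lower in 2 clusters.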

How the results depend on the processing

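No paired analysis was possible because each treatment has 1 library. With 1 library a treatment, no setting can show how far animals differ, and the direction of every ratio hangs on the labels. The summed ratio stayed below 1 under every alternative run, in all 5 populations, from 0.747 to 0.880 in all keratinocytes and from 0.412 to 0.685 in the bulge class. Each member past 1.5-fold in a population was measured again under every alternative, which gave 399 values. Of these 360 stayed past 1.5-fold, and 122 moved outside their counting interval. In the bulge class 2 reversed, Btg2 to 1.03 when thinned and Tiparp to 1.07 without macrophage marker UMIs. The values come from overlapping sets of the same cells and are not independent. The share of all genes that stayed past the fold was not computed, so the 360 cannot be read against it. The causes of the changes were not tested.

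Values outside their counting interval, or counts over 1.5 times apart, follow, with all meaning all keratinocytes. The share of all genes past the fold was not computed for most of these settings, so their counts cannot be read against it. In upper follicle cells of at most 5% mitochondrial UMIs it was 4.02% lower and 4.73% higher, against 0.596% and 1.56% in the main setting. It was also computed for the last 2 alternatives, as given above. Thinning gave ratios of 0.817 in all, 0.792 in basal, 0.824 in suprabasal and 0.841 in upper follicle cells, with 6 basal members lower, 2 suprabasal and 1 bulge member higher. The mean of each cell's CPM gave 0.818 in all, 0.829 in basal and 0.817 in suprabasal cells, with 5 basal members lower and 1 basal and 1 suprabasal member higher. Leaving mitochondrial, ribosomal and haemoglobin genes out of the total gave 0.823 in all, 0.838 in basal, 0.813 in suprabasal and 0.540 in bulge cells, with 5 basal and 7 upper follicle members lower and 1 bulge member higher. At most 5% mitochondrial UMIs gave 0.880 in all, 0.921 in basal, 0.822 in suprabasal and 0.894 in upper follicle cells and 0.412 in the bulge class (453 cells with sitagliptin, 21 with PBS), with 3 members lower in all, 2 in upper follicle, and 1 higher in basal, upper follicle and bulge cells each. Clusters weighted equally gave 0.747 in all, 0.850 in suprabasal and 0.481 in bulge cells, with 9 members lower in all. Resolution 0.5 gave 0.875 in upper follicle, with 2 lower, and 0.613 in bulge cells. Clustering with the members gave 0.829 in upper follicle, with 2 lower, 0.607 in bulge cells, and 6 basal members lower. Leaving out the 8% highest doublet scores gave 0.534 in bulge cells. A 2-fold threshold left 8 bulge members lower, 2 upper follicle members, 1 member in all, and 0 in basal and suprabasal cells each, and no level filter gave 9 lower in all, 7 in basal, 10 in suprabasal and 7 in upper follicle cells, and 1 higher in bulge cells. Of the alternatives added after seeing the data, cells without macrophage marker UMIs gave 0.817 in all, 0.828 in basal (4 lower, 1 higher), 0.813 in suprabasal, 0.749 in upper follicle (9 lower) and 0.602 in bulge cells. Clusters with at least 50 cells in each library gave 0.854 in all, and leaving out the cluster led by Ramp1 gave 0.857 in all and 0.685 in bulge cells.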

Other observations

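Among barcodes left out for over 10% mitochondrial UMIs, which no comparison used, the summed level of the members was 3388 CPM in 3656 barcodes of the sitagliptin-labelled and 4761 CPM in 3251 of the PBS-labelled library.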
